A study of Rattus norvegicus with 125 samples.

Results

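The mitochondrial carrier family SLC25 was followed in the rat as all genes whose symbol in the platform annotation starts with Slc25a and a digit. With probe sets that carry a single symbol, and the probe set of the highest mean for each gene, 37 of the 13438 genes measured were members, from 48 of 31139 probe sets. Of these, 27 members had 1 probe set, 9 had 2 and Slc25a23 had 3. A further 12 family symbols of the RefSeq table were not among the members, and Slc25a5 and Slc25a6 among these share 1 probe set that is given apart.

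SLC25 proteins are nuclear-encoded membrane proteins, most of which sit in the inner mitochondrial membrane and exchange one metabolite for another. They carry ADP and ATP, phosphate, amino acids, carnitine esters, di- and tricarboxylates, cofactors and iron between the cytosol and the matrix. Organs that respire mostly on fat, make urea or run aspartate and glutamate shuttles are known to hold different sets of carriers. Phosphine, used against insects in stored grain, is known to block electron transfer at cytochrome c oxidase in mitochondria.

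The arrays came from adult male Sprague-Dawley rats that had inhaled phosphine (PH3) through whole-body exposure, or air (Air, 0 ppm). The concentration was 387 ppm over 40 min, which multiplies to 15480 ppm·min. Tissue was taken 1, 3, 6 or 24 h after exposure from brain, heart and kidney, at 3 and 6 h from liver, and at 3 h, 24 h and 1 week from lung. The 125 arrays from 48 rats comprise 32 of brain, 29 of heart, 32 of kidney, 11 of liver and 21 of lung, in 33 groups that allow 16 comparisons of PH3 with Air. Most groups held 4 rats. The heart groups of 24 h held 3 PH3 and 2 Air rats, and the lung groups of 3 h held 4 PH3 and 2 Air rats. The PH3 lungs of 1 week and the PH3 livers of 3 h came from 3 rats each, which were different animals. The PH3 liver arrays of 3 h have no Air counterpart. Each time had its own Air rats, and the tissues of a rat enter several comparisons. All values are log2 signals and all changes are PH3 minus Air on the log2 scale. The number of arrays limits the precision, and levels of different probe sets are not set against each other. In whole tissue, fewer cells of a type and less RNA per cell cannot be told apart.

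The tissue labels were checked on marker genes in the Air arrays. All arrays of the labelled organ lay above those of every other organ for 4 of 5 brain markers, 4 of 4 heart markers, 3 of 4 kidney markers, 5 of 5 liver markers and 5 of 5 lung markers. The exceptions were Syt1 in brain and the probe set of Slc34a1 in kidney. In brain at 24 h, the mean of 5 markers of cerebellum and brain stem was 9.34 to 10.26 in PH3 arrays and 4.25 to 9.40 in Air arrays, and that of 6 striatal markers 6.58 to 8.96 in PH3 and 8.30 to 9.66 in Air. All 11 of these markers had an unadjusted p under 0.05 there, and their part in the brain results at 24 h was not tested.

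Across the Air arrays of the 5 organs, all 37 members differed between organs in a limma F test at an adjusted p under 0.05, as did 98.1% of all genes. The median difference between the highest and the lowest organ was 2.60 on the log2 scale for members (6.07-fold) and 1.64 for all genes (3.11-fold). A difference above 3 was seen in 14 members (37.8%) and in 26.6% of all genes, and one above 1 in 32 members (86.5%) and in 69.2% of all genes. Members higher in one organ than in each other organ, with every pairwise test passed, numbered 6 in brain (16.2%, against 17% of all genes), 5 in heart (13.5%, against 12.1%), 5 in kidney (13.5%, against 8.89%), 6 in liver (16.2%, against 12.9%) and 2 in lung (5.41%, against 15.6%). These shares lay near those of all genes in brain and heart, and the lung share was the furthest below it. Air livers were of 6 h only and Air lungs of 3 h, 24 h and 1 week. Liver and lung thus share no Air time, and organ and time are not fully separated. In the 6 h Air arrays of the 4 organs other than lung, 35 of 37 members passed the F test. With the rat as a fixed block 36 did, and the share of all genes was not counted there.

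**Figure D1:**
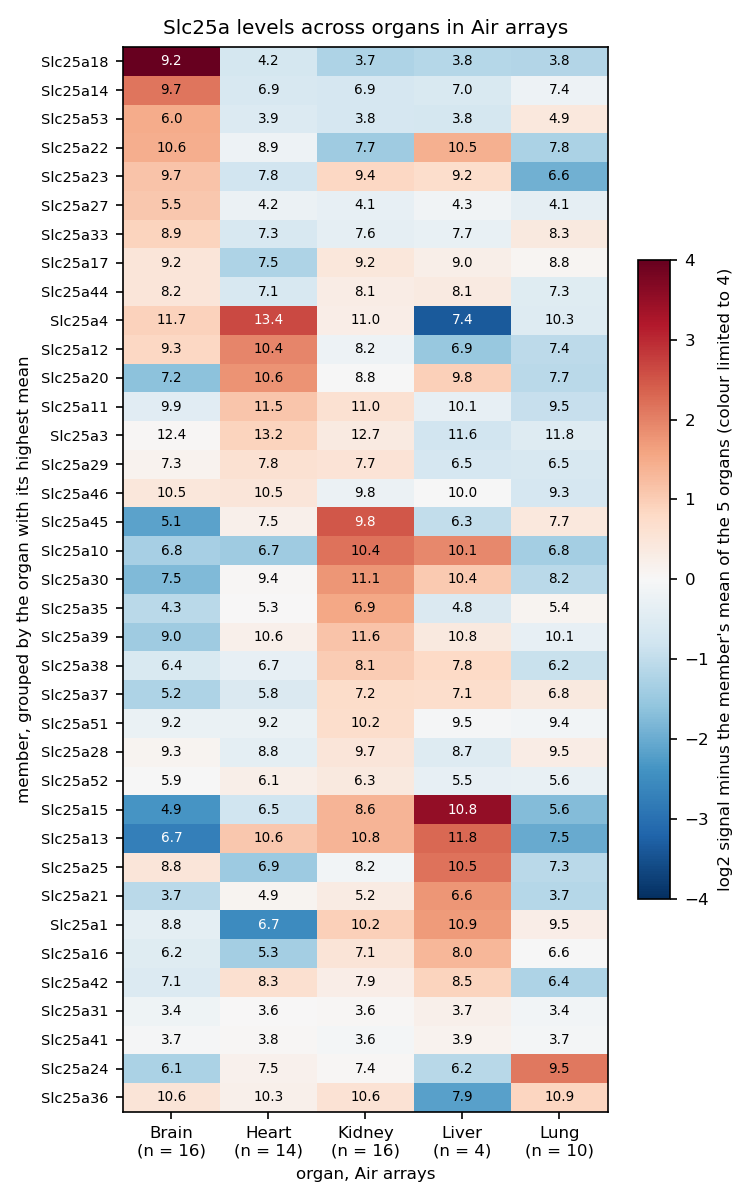
Level of the 37 members in the Air arrays of brain (16 arrays), heart (14), kidney (16), liver (4) and lung (10), as log2 signal minus the member's mean over the 5 organs (colour, limited to 4). Members are grouped by the organ with their highest mean: 9 in brain, 7 in heart, 10 in kidney, 9 in liver and 2 in lung.

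Among the carriers of adenine nucleotides and phosphate, Slc25a4, the ADP/ATP translocase of muscle and brain, averaged 13.45 ± 0.08 in heart (SD, n = 14) and 11.72 ± 0.17 in brain (n = 16). Kidney averaged 11.05 ± 0.21 (n = 16), lung 10.29 ± 0.30 (n = 10) and liver 7.44 ± 0.20 (n = 4). All heart arrays, 13.29 to 13.57, lay above all brain arrays, 11.39 to 12.00, and the gap was 1.73 ± 0.07 (SE; 3.31-fold; limma adjusted p = 1.7e-29). Slc25a3, the phosphate carrier, showed a narrow range with heart highest at 13.24 ± 0.05, followed by kidney at 12.72 ± 0.06, brain at 12.41 ± 0.05, lung at 11.84 ± 0.13 and liver at 11.59 ± 0.08. Slc25a31, the translocase known from testis, stayed at 3.37 to 3.74 in the organ means, near the bottom of the scale. The probe set shared by Slc25a5 and Slc25a6, further ADP/ATP translocases, averaged 12.87 in kidney, 12.13 in liver, 12.03 in brain, 12.01 in heart and 11.71 in lung. In liver, the organ means of Slc25a4 and of the shared probe set thus stood in different places: lowest of 5 for the first and second of 5 for the shared one.

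The aspartate and glutamate carriers divided by organ. Slc25a12 (aralar), which exports aspartate for glutamate in the malate-aspartate shuttle, was highest in heart at 10.39 ± 0.08 (n = 14), then brain at 9.28 ± 0.08 (n = 16), kidney at 8.23 ± 0.22, lung at 7.39 ± 0.25 and liver at 6.92 ± 0.17 (n = 4). Slc25a13 (citrin), its paralog known from liver, was highest in liver at 11.79 ± 0.10, then kidney at 10.84 ± 0.09, heart at 10.58 ± 0.12, lung at 7.47 ± 0.18 and brain at 6.74 ± 0.31. Liver was the lowest organ for Slc25a12 and the highest for Slc25a13, and brain second for Slc25a12 and lowest for Slc25a13.

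Slc25a18, a glutamate carrier, had the largest gap of any member between its highest organ and the next. It averaged 9.18 ± 0.16 in brain (range 8.78 to 9.47), against 4.22 ± 0.24 in heart (3.88 to 4.88) and 3.71 to 3.78 in kidney, liver and lung. Brain exceeded heart by 4.97 ± 0.07 (SE; 31.3-fold; limma adjusted p = 1.3e-48). Slc25a22, the other glutamate carrier, averaged 10.55 ± 0.20 in brain and 10.54 ± 0.17 in liver, which did not differ beyond their spread (adjusted p = 0.917), then 8.91 ± 0.21 in heart, 7.84 ± 0.37 in lung and 7.67 ± 0.32 in kidney. Kidney and lung did not pass the test either (adjusted p = 0.193).

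The carriers of citrate and dicarboxylates were led by liver, kidney and heart. Slc25a1, which exports citrate for fat synthesis, averaged 10.89 ± 0.18 in liver, 10.15 ± 0.35 in kidney, 9.47 ± 0.38 in lung, 8.81 ± 0.34 in brain and 6.67 ± 0.38 in heart. Slc25a10, the dicarboxylate carrier, was high in kidney (10.35 ± 0.20) and liver (10.10 ± 0.11), whose difference did not pass (adjusted p = 0.142), and lay at 6.75 to 6.85 in heart, lung and brain. Slc25a11, the oxoglutarate and malate carrier of the shuttle, was highest in heart at 11.51 ± 0.09, 0.50 ± 0.06 (SE) above kidney.

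The exchangers of ATP-Mg and phosphate differed in their leading organs. Slc25a24 was highest in lung at 9.45 ± 0.14 (9.23 to 9.65, n = 10), 1.91 ± 0.10 (SE; 3.76-fold) above heart. Slc25a25 was highest in liver at 10.54 ± 0.40 (10.05 to 10.90, n = 4), then brain at 8.84 ± 0.18, kidney at 8.24 ± 0.52 (7.18 to 8.95), lung at 7.29 ± 0.30 and heart at 6.91 ± 0.22. Slc25a23 averaged 9.68 ± 0.25 in brain, 9.38 ± 0.41 in kidney, 9.25 ± 0.14 in liver, 7.76 ± 0.20 in heart and 6.60 ± 0.51 in lung, but its 2 other probe sets were highest in liver, and kidney and liver did not differ (adjusted p = 0.581). Slc25a41 stayed at 3.65 to 3.87.

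Among carriers of carnitine esters and amino acids, Slc25a20, the carnitine-acylcarnitine carrier of fat oxidation, was highest in heart, 0.81 ± 0.10 (SE; 1.75-fold) above liver. Slc25a29, a carrier of basic amino acids, averaged 7.78 in heart and 7.72 in kidney (adjusted p = 0.598). Slc25a45, a relative of both, was highest in kidney at 9.75 ± 0.27, 2.09 ± 0.13 (SE; 4.24-fold) above lung. Slc25a15, the ornithine carrier of the urea cycle, averaged 10.81 ± 0.10 in liver (10.68 to 10.91), 8.65 ± 0.33 in kidney and 4.93 to 6.49 in heart, lung and brain, and liver exceeded kidney by 2.17 ± 0.15 (SE; 4.49-fold). Slc25a21, the oxodicarboxylate carrier, was also highest in liver, 1.43 ± 0.16 (SE) above kidney.

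Among the members related to uncoupling proteins, Slc25a14 was highest in brain at 9.73 ± 0.12 (9.52 to 10.02), 2.38 ± 0.09 (SE; 5.20-fold) above lung, and Slc25a27 in brain at 5.53 ± 0.31, 1.22 ± 0.11 (SE; 2.33-fold) above liver. These Slc25a27 values come from the probe set with the highest mean over the organs. Its other probe set, which is the brighter one in brain and the one used for the PH3 comparisons there, averaged 6.77 ± 0.23 in brain and 4.20 ± 0.34 in liver, a gap of 2.57 ± 0.11 (SE; 5.95-fold). Slc25a30, known from kidney, was highest there at 11.09 ± 0.18, 0.73 ± 0.12 (SE; 1.65-fold) above liver. The iron importers differed in shape. Slc25a37 (mitoferrin of erythroid cells) was highest in kidney at 7.18 and liver at 7.12 (adjusted p = 0.758) and lowest in brain at 5.18, while Slc25a28, the other mitoferrin, spanned only 8.68 in liver to 9.66 in kidney. The pyrimidine nucleotide carriers were low in different organs: Slc25a36 was lowest in liver at 7.90 ± 0.16 and highest in lung at 10.94 ± 0.25, and Slc25a33 was lowest in heart at 7.33 ± 0.24 and highest in brain at 8.86 ± 0.13.

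Of the remaining members, Slc25a39, a glutathione carrier, Slc25a51, the NAD carrier, and Slc25a35, whose substrate is not established, were higher in kidney than in each other organ, by 0.76 ± 0.12, 0.73 ± 0.07 and 1.44 ± 0.14 (SE) over the next. Slc25a46, an outer membrane member involved in mitochondrial shape, averaged 10.50 in heart and 10.48 in brain (adjusted p = 0.767). Slc25a42, a coenzyme A carrier, averaged 8.52 in liver and 8.30 in heart (adjusted p = 0.0905). Slc25a17, the peroxisomal member, averaged 9.24 in brain and 9.20 in kidney (adjusted p = 0.62). Slc25a16, Slc25a38, Slc25a44, Slc25a52 and Slc25a53 had their highest means in liver (7.97), kidney (8.06), brain (8.24), kidney (6.26) and brain (5.95). Of the 10 members with several probe sets, 7 had the same leading organ in each, and Slc25a23, Slc25a39 and Slc25a44 did not.

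Some enzymes and channels that work with these carriers led in the same organs as some of them. Of all genes, 17% were higher in brain than in each other organ, 12.1% in heart, 8.89% in kidney, 12.9% in liver and 15.6% in lung. The lists are small, and a count of 1 in them is near those shares. All 4 malate-aspartate shuttle enzymes and all 3 outer membrane channels (VDAC) were higher in heart than in each other organ, and 6 of 7 urea cycle enzymes were so in liver. Of 6 carnitine shuttle enzymes, 3 led in heart, 2 in liver and 1 in brain, and of 13 genes for carrier import, 6 led in heart, 2 in brain and 2 in kidney. Heart led for 2 of 6 heme and iron-sulfur partners, kidney for 2 of 6, and liver for 2 of 3 citrate export partners. Of 7 calcium uniporter genes, 2 led in kidney and 1 each in brain, heart and lung, and of 10 carriers outside the symbol rule, 2 led in brain and 1 each in heart, kidney and liver.

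After PH3 exposure, few members changed. Over 16 comparisons, 592 values of a member in a comparison were tested, and 5 (0.845%) passed an adjusted p under 0.05 over all genes, against 0.253% of the values of all genes: 3 rose and 2 fell, in 5 different members. All lay at 6 h: Slc25a25 in kidney, Slc25a24, Slc25a23 and Slc25a29 in heart, and Slc25a3 in liver. In 13 comparisons 0 members passed. At an unadjusted p under 0.05 there were 59 such values (9.97%), in 29 of 37 members, against 7.53% of the values of all genes. In the chosen probe sets 6 changes exceeded 1 in size, namely 3 of Slc25a25 in kidney and 1 each of Slc25a33 and Slc25a23 in lung at 3 h and of Slc25a30 in liver at 6 h.

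**Figure D2:**
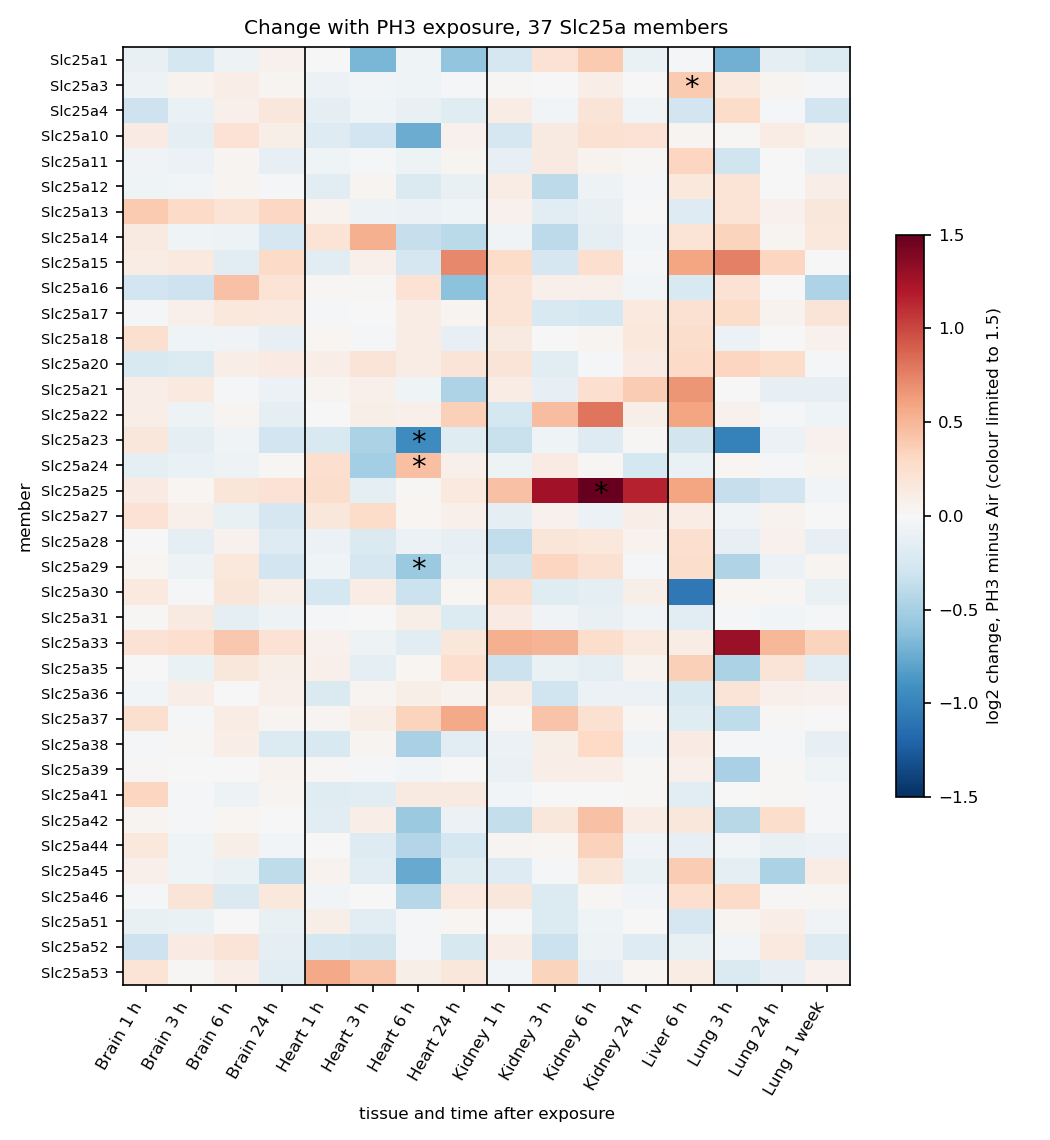
Log2 change, PH3 minus Air (colour, limited to 1.5), of the 37 members (down the page) in the 16 comparisons of tissue and time (across). A star marks the 5 values that passed at an adjusted p under 0.05, of which 3 lie in heart at 6 h, 1 in kidney at 6 h and 1 in liver at 6 h.

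The promoters of Slc25a25 and Slc25a33 are shown because these 2 members had the upward changes above 1 in the probe sets chosen by the highest mean. A further probe set of Slc25a36 also had one, in heart at 6 h. Each stretch is 250 bases that end just before the RefSeq gene start (GRCr8), given 5′ to 3′ in the direction of the gene, which lies on the minus strand in both. Capitals mark TGACGTCA, the letters of the cyclic AMP response element. The Slc25a25 stretch is chr3:36116582-36116831 and the Slc25a33 stretch is chr5:165502974-165503223.
Slc25a25: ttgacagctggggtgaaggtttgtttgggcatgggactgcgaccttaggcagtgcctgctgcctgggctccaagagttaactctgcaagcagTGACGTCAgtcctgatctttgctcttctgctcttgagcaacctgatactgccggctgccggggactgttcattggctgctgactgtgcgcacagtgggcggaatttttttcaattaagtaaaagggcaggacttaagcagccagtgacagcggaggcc
Slc25a33: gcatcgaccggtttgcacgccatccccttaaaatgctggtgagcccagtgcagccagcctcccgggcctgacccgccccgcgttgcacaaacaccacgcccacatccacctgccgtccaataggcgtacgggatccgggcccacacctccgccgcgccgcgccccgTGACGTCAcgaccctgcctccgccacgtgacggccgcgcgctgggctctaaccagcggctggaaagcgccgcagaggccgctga

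The match begins 158 bases before the start in Slc25a25 and 84 bases before it in Slc25a33. Among the 32 members with an entry in the promoter table, these were the 2 that held TGACGTCA on either strand (6.25%), against 531 of 33469 promoters (1.59%). These promoters are those of the whole promoter table and were not limited to the genes measured on the arrays. The GC content was 54.4% for Slc25a25 and 70% for Slc25a33, with 7 and 30 CpG pairs. Of the other letters searched on both strands, CCAAT stood in 17 members (53.1%, against 34% of all promoters), GGGCGG in 20 (62.5%, against 30.5%), CACGTG in 3 (9.38%, against 5.59%) and TATAAA in 1 (3.12%, against 12.9%). TGACGTCA and CACGTG can share their end letters, and in Slc25a33 the 2 do not overlap. Both genes and motifs were chosen after values were seen, and a match is a description of letters, not of binding.

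In kidney at 6 h, Slc25a25 rose 3.34-fold. Its signal was 9.84, 10.53, 10.03 and 11.19 in the PH3 kidneys, against 8.68, 8.75, 8.41 and 8.80 in the Air kidneys. The 4 PH3 kidneys all lay above the 4 Air kidneys, and that of rat 141 was the highest. The change was 1.74 ± 0.33 (SE; 95% interval 1.06 to 2.42; limma adjusted p = 0.0332), the gene ranked 5 of 13438 by p, and it was 1 of 37 members among 0.127% of all genes that passed.

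Slc25a25 had 8.46, 8.83, 9.73 and 8.70 in PH3 kidneys at 1 h, against 8.28, 8.95, 8.95 and 7.79 in Air kidneys, which overlapped. At 3 h it had 8.42, 8.92, 10.12 and 8.99 in PH3 kidneys, against 8.37, 7.94, 7.18 and 7.90 in Air kidneys. At 24 h it had 8.59, 9.27, 9.36 and 9.22 in PH3 kidneys, against 8.40, 7.64, 7.89 and 7.90 in Air kidneys. The groups did not overlap at 3 h or at 24 h, yet neither difference passed (1.27, adjusted p = 0.201, and 1.16, adjusted p = 1.0), and the Air kidneys themselves lay lower at 3 and 24 h than at 6 h. The F test between times in kidney did not pass for any member (0% of all genes passed; 2 members, 5.41%, had an unadjusted p under 0.05, against 4.96% of all genes; for Slc25a25 limma adjusted p = 0.83).

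The 6 h change of Slc25a25 differed between tissues. It was 1.74 in kidney, 0.19 in brain and 0.02 in heart, and the limma F test of the difference gave an adjusted p of 0.00157, the only member among 0.833% of all genes that passed at 6 h. The kidney change exceeded that of heart by 1.72 ± 0.35 (SE; adjusted p = 0.00238) and that of brain by 1.55 ± 0.35 (SE; adjusted p = 0.0353). Liver was not in that test. Slc25a25 had 10.95, 11.63, 10.69 and 11.27 in PH3 livers at 6 h, against 10.91, 10.84, 10.38 and 10.05 in Air livers, a change of 0.59 that overlapped and did not pass (adjusted p = 0.308).

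Markers of other tissue were read in the same kidneys. The mean of 6 hepatocyte markers in the 6 h kidneys was 6.41, 5.09, 6.40 and 3.87 in PH3, in the order of the signals above, and 3.81 to 5.53 in Air. In the 3 h PH3 kidneys one array had a hepatocyte mean of 10.17 and a Slc25a25 signal of 8.99, while the others had 4.93 to 5.87, against 5.11 to 6.72 in Air. The mean of 3 skeletal muscle markers was 3.75 to 4.10 in the 6 h PH3 kidneys and 3.44 to 3.54 in the Air kidneys, without overlap. Of single genes, 5.94% did not overlap there. The part of the hepatocyte and muscle markers in the result was not tested. Over the 8 fits without 1 array the change was 1.48 to 1.93, and it passed without PH3 rat 128 or 140 but not without PH3 rats 134 or 141 or any of the 4 Air rats. Without rat 141, the highest PH3 kidney, it was 1.48 (adjusted p = 0.157). Fitted on the 8 arrays alone it did not pass, with the same change (adjusted p = 0.089).

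Beside Slc25a25, 4 other members had an unadjusted p under 0.05 in kidney at 6 h, all upward, which with it makes 13.5% of members, against 7.78% of all genes. Slc25a22, a glutamate carrier, had 7.95, 8.43, 7.93 and 8.73 in PH3 kidneys, against 7.56, 7.25, 7.54 and 7.51 in Air kidneys, without overlap, a change of 0.80 that did not pass (adjusted p = 0.306). The mean of the 13 genes for carrier import was 9.53 to 9.79 in PH3 and 9.42 to 9.51 in Air kidneys. By limma 0 of the 13 were called, against 0.127% of all genes. An unadjusted p under 0.05 was seen in 3 of the 13, against 7.78% of all genes.

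**Figure D3:**
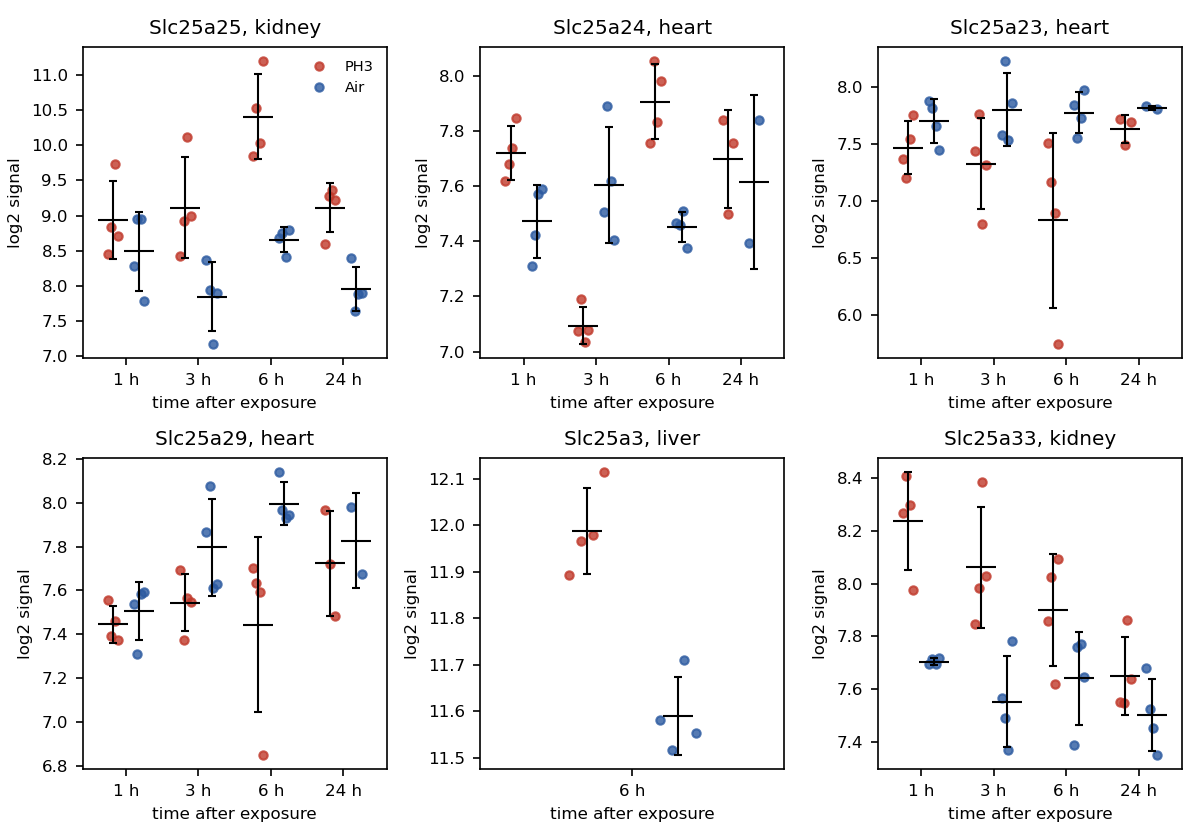
Log2 signal of each array by time after exposure, PH3 in red left of Air in blue, with bars for the mean ± SD. Panels give Slc25a25 and Slc25a33 in kidney, Slc25a24, Slc25a23 and Slc25a29 in heart and Slc25a3 in liver. At 6 h Slc25a25 in kidney lay at 9.84 to 11.19 in PH3 and 8.41 to 8.80 in Air.

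In heart at 6 h, 3 members passed, as did 2.7% of all genes, the largest share of the 16 comparisons. Slc25a24 rose and Slc25a23 and Slc25a29 fell. All 3 calls were lost when the 8 arrays were fitted alone, with the same changes (adjusted p = 0.132 for Slc25a24, 0.241 for Slc25a23 and 0.23 for Slc25a29). At an unadjusted p under 0.05, 10 members (27%) stood out, 1 higher and 9 lower, against 15.1% of all genes. The median change was -0.07 for members and -0.01 for all genes. One PH3 heart, that of rat 141, was the lowest of the 4 PH3 hearts for 22 of 37 members and for 40.7% of all genes. The median signal of the members was 6.85 in that array, against 7.41 to 7.51 in the other PH3 hearts and 7.46 to 7.54 in the Air hearts, and without it 0 members passed. That was also so without Air rats 126, 138 or 156, while 1 member passed without Air rat 132 and 5 without PH3 rat 128 or 140. The median over all probe sets was 5.14 in that array, 5.25 to 5.26 in the other PH3 hearts and 5.19 to 5.25 in the Air hearts.

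Slc25a24, an exchanger of ATP-Mg and phosphate, had 7.76, 8.05, 7.83 and 7.98 in the PH3 hearts, against 7.47, 7.46, 7.51 and 7.38 in the Air hearts, and the groups did not overlap. The change was 0.45 ± 0.12 (SE; limma adjusted p = 0.0332), and without rat 141 it was 0.43 (adjusted p = 0.113). It also missed the threshold without PH3 rat 134 or any of the 4 Air rats (adjusted p of the 8 such fits 0.0235 to 0.113). Of the members that passed in heart it was the one in which rat 141 was not the lowest array.

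Slc25a23, a close relative with the same substrates, had 7.51, 7.17, 6.90 and 5.75 in the PH3 hearts, against 7.84, 7.55, 7.72 and 7.97 in the Air hearts. All PH3 hearts lay below all Air hearts, and that of rat 141 lay furthest below. The change was -0.94 ± 0.24 (SE; limma adjusted p = 0.0323), and without rat 141 it was -0.58 (adjusted p = 0.179). Its other 2 probe sets gave 0.26 ± 0.23 and 0.11 ± 0.14 (SE), so the fall was seen in 1 of 3 probe sets, and the mean of the 3 gave -0.19 (adjusted p = 0.66). Slc25a29, the carrier of basic amino acids, had 7.70, 7.63, 7.59 and 6.85 in the PH3 hearts, against 8.14, 7.97, 7.93 and 7.94 in the Air hearts, again without overlap. Its change was -0.55 ± 0.15 (SE; limma adjusted p = 0.0436), and -0.35 without rat 141 (adjusted p = 0.255). The call of Slc25a23 was also lost without Air rats 126, 138 or 156, and that of Slc25a29 without any of the 4 Air rats.

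The other members with an unadjusted p under 0.05 in heart at 6 h had lower means in PH3 and did not pass. Slc25a10, the dicarboxylate carrier, had 6.51, 6.18, 6.83 and 5.62 in PH3 hearts, against 7.03, 7.06, 6.89 and 7.13 in Air hearts (change -0.74, adjusted p = 0.0899). Slc25a46 had 10.35, 10.21, 10.39 and 9.48 in PH3 hearts, against 10.60, 10.49, 10.52 and 10.51 in Air hearts (change -0.42, adjusted p = 0.0738). The groups did not overlap in either, and rat 141 was lowest in both. Slc25a45, Slc25a42, Slc25a38, Slc25a44 and Slc25a12 had changes of -0.75, -0.56, -0.49, -0.44 and -0.21. In all, 7 members (18.9%) did not overlap, against 10.5% of all genes.

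Slc25a36, a pyrimidine nucleotide carrier, did not pass in heart at 6 h by its brighter probe set (change 0.09, adjusted p = 0.853), but did by its further, dimmer one. That probe set had 6.68, 7.07, 6.48 and 8.03 in the PH3 hearts, against 5.63, 5.72, 5.50 and 5.52 in the Air hearts, without overlap and with rat 141 highest. The change was 1.48 ± 0.28 (SE; limma adjusted p = 0.00353 over all 31139 probe sets), and 1.16 to 1.67 in the 8 fits without 1 array, all of which passed (adjusted p = 0.00207 to 0.022). The change without rat 141 was 1.16.

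The same probe set of Slc25a36 had 6.37, 6.39, 6.60 and 6.88 in PH3 kidneys at 6 h, against 6.07, 5.84, 5.70 and 6.05 in Air kidneys, without overlap, a change of 0.65 that did not pass (adjusted p = 0.156). The brighter probe set had -0.09 there. In kidney at 1 h the dimmer one had 6.32 to 6.74 in PH3 and 5.78 to 6.27 in Air. At 3 h it had 6.41 to 7.1 in PH3 and 5.89 to 6.35 in Air. At 24 h the direction was the opposite, with 5.65 to 5.89 in PH3 and 5.95 to 6.37 in Air. The groups did not overlap at these times, and no change passed. Of single genes, 3.37%, 2.9% and 1.75% did not overlap there. In heart the groups overlapped at 1, 3 and 24 h. Of the 11 further probe sets of the 10 members that have several, that of Slc25a36 in heart at 6 h was the 1 of 176 values that passed, and 16 had an unadjusted p under 0.05. It was added after the values were seen, and which probe set reads the transcripts of Slc25a36 was not tested.

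Genes for carrier import had a mean of 9.68 to 9.81 in the 6 h PH3 hearts and 9.85 to 9.88 in the Air hearts, without overlap. By limma 0 of the 13 were called and 4 had an unadjusted p under 0.05, 3 of them lower. Of all genes, 15.1% had an unadjusted p under 0.05 in that comparison and 10.5% did not overlap. Marker means in the same hearts were 13.37 to 13.46 in PH3 and 13.23 to 13.40 in Air for 4 heart markers, and 4.20 to 5.92 in PH3 and 4.0 to 4.36 in Air for 5 brain markers, 3 of which had an unadjusted p under 0.05 and higher means in PH3. Erythroid, neutrophil, fat and hepatocyte marker means overlapped. The part of the brain markers in the result was not tested.

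The effect on Slc25a24 in heart differed between times. At 1 h it had 7.62, 7.68, 7.74 and 7.85 in PH3 hearts, against 7.31, 7.42, 7.57 and 7.59 in Air hearts (change 0.25, adjusted p = 0.609). At 3 h it had 7.07, 7.19, 7.04 and 7.08 in PH3 hearts, against 7.51, 7.89, 7.62 and 7.40 in Air hearts (change -0.51, adjusted p = 0.0583). At 24 h it had 7.84, 7.50 and 7.76 in PH3 hearts, against 7.39 and 7.84 in Air hearts (change 0.08). PH3 hearts lay above Air hearts at 1 and 6 h and below them at 3 h, each without overlap, and the groups overlapped at 24 h. The F test between times gave a limma adjusted p of 0.0182 for Slc25a24, the only member among 0.268% of all genes that passed in heart, and 1 member passed in each of 29 fits without 1 array.

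In liver at 6 h, Slc25a3, the phosphate carrier, was the member that passed, as did 0.238% of all genes. It had 11.89, 11.97, 11.98 and 12.11 in the PH3 livers, against 11.58, 11.52, 11.71 and 11.55 in the Air livers. The 4 PH3 livers lay above the 4 Air livers, and the change was 0.40 ± 0.07 (SE; 1.32-fold; limma adjusted p = 0.0423). Without 1 array it was 0.36 to 0.44, with an adjusted p of 0.0546 to 0.164, so that leaving out any of the 8 arrays ended the call. The PH3 livers of 3 h, which have no Air counterpart, had 11.74, 11.69 and 11.92.

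In that comparison, 11 members (29.7%) had an unadjusted p under 0.05, 8 higher and 3 lower, against 14.1% of all genes, and 6 members (16.2%) did not overlap, against 9.61% of all genes. The median change was 0.11 for members and 0.01 for all genes. Slc25a11, the oxoglutarate carrier, had 10.30, 10.35, 10.41 and 10.45 in PH3 livers, against 10.06, 10.05, 10.17 and 9.93 in Air livers (change 0.33, adjusted p = 0.0944). Slc25a15, the ornithine carrier, had 11.33, 11.33, 11.10 and 11.86 in PH3 livers, against 10.83, 10.68, 10.91 and 10.83 in Air livers (change 0.59, adjusted p = 0.205). Both were without overlap, and neither passed.

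Slc25a30 had the largest change of the liver, with 8.04, 9.33, 10.23 and 9.57 in PH3 livers, against 10.26, 10.41, 10.57 and 10.20 in Air livers. One PH3 liver lay far below the rest and another overlapped the Air range, and the change of -1.07 did not pass (adjusted p = 0.183). Slc25a22 (0.60, adjusted p = 0.121), Slc25a20 (0.29, adjusted p = 0.157), Slc25a46 (0.26, adjusted p = 0.198) and Slc25a21 (0.66, adjusted p = 0.242) had higher means in PH3. Slc25a13 (-0.19, adjusted p = 0.223) and Slc25a23 (-0.28, adjusted p = 0.272) had lower ones. The urea cycle carrier Slc25a15 and the aspartate carrier Slc25a13, both highest in liver among the 5 organs, thus had changes of opposite sign, neither past the threshold.

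**Figure D4:**
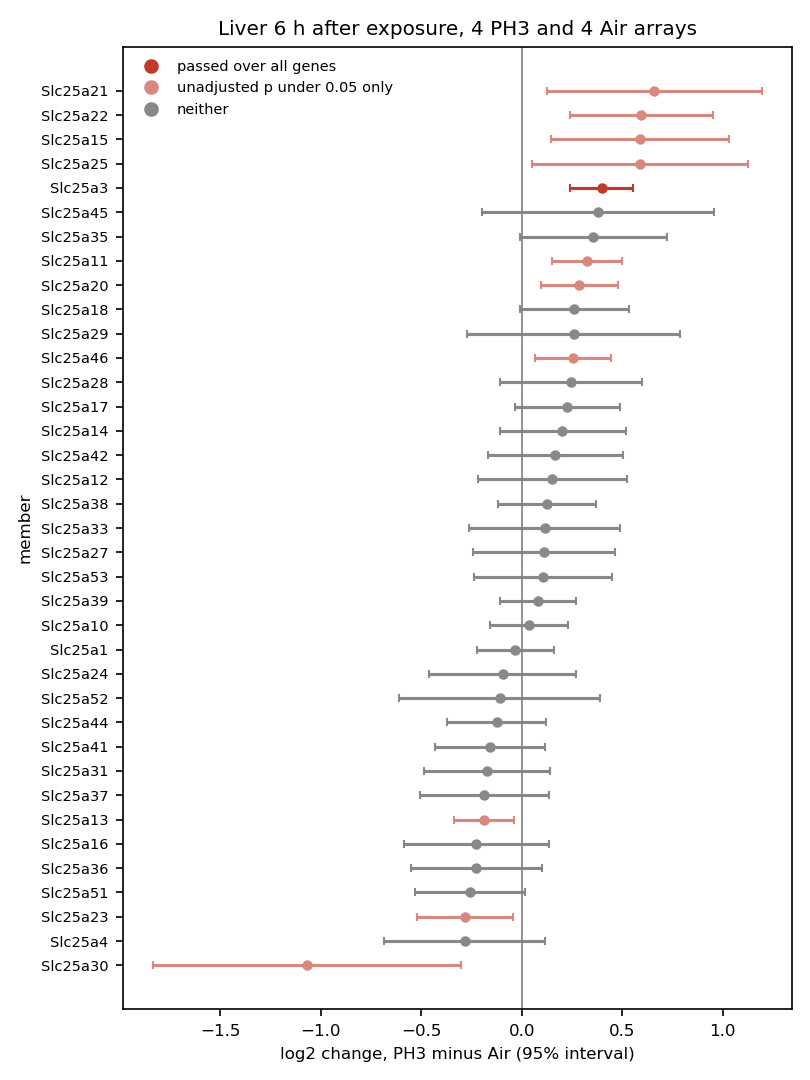
Log2 change, PH3 minus Air, with its 95% interval, of the 37 members in liver 6 h after exposure, 4 PH3 and 4 Air arrays. Slc25a3, at 0.40, was the member that passed, and Slc25a30, at -1.07, had the largest change.

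Partners of the carriers were called in liver at 6 h, where 0.238% of all genes passed, and in no other comparison. They were Got1, the cytosolic aspartate aminotransferase of the malate-aspartate shuttle (1.59 ± 0.26, SE, limma adjusted p = 0.0323), and Tomm40, the channel through which carriers enter mitochondria (1.04 ± 0.19, adjusted p = 0.0423). Asl of the urea cycle (0.91 ± 0.13, adjusted p = 0.0209) and Cpt2 of the carnitine shuttle (0.65 ± 0.11, adjusted p = 0.0323) also rose. The 4 genes were higher in all PH3 livers than in all Air livers. Of 13 carrier import genes, 9 had an unadjusted p under 0.05, all higher, against 14.1% of all genes. Their mean was 9.52 to 9.75 in PH3 and 9.20 to 9.36 in Air livers, and their median change was 0.29. The means of the shuttle enzymes (11.82 to 11.97 in PH3, 11.24 to 11.55 in Air) and carnitine enzymes (8.52 to 9.05 in PH3, 8.30 to 8.44 in Air) did not overlap. Nor did those of the urea cycle (10.74 to 10.91 in PH3, 10.55 to 10.73 in Air) and the outer membrane channels (11.24 to 11.34 in PH3, 11.10 to 11.20 in Air). Those of the uniporter, heme, citrate and outside carrier lists did. Of single genes, 9.61% did not overlap in this comparison, and no such share was computed for list means. Marker means in these livers overlapped, at 12.84 to 12.96 in PH3 and 12.82 to 12.86 in Air for 5 liver markers and 6.04 to 7.21 in PH3 and 6.08 to 6.91 in Air for erythroid markers.

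Slc25a33, a pyrimidine nucleotide carrier, passed in 0 comparisons by limma, yet its change was above 0 in 14 of 16 and its unadjusted p under 0.05 in 7, each upward. In these data its changes were 0.22, 0.25, 0.40 and 0.22 in brain at 1, 3, 6 and 24 h, and 0.53, 0.51, 0.26 and 0.15 in kidney at the same times. In heart they were 0.07, -0.07, -0.17 and 0.17, in liver 0.12 at 6 h, and in lung 1.30, 0.50 and 0.33 at 3 h, 24 h and 1 week. PH3 arrays lay above all Air arrays without overlap in 7 comparisons. Of the values of all genes, 7.53% had an unadjusted p under 0.05. The share of all genes without overlap in either direction ran from 0.908% in lung at 24 h to 41.3% in lung at 3 h. It is named beyond the rule for named genes, after its values were seen, and comparisons of different tissues share rats.

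Its largest change was in lung at 3 h, where it had 10.02, 9.30, 9.01 and 8.92 in PH3 lungs, against 8.04 and 7.99 in Air lungs (1.30 ± 0.30, SE, limma adjusted p = 0.0655). It passed there when these 6 arrays were fitted alone (adjusted p = 0.0486) or with array weights (adjusted p = 0.000664). Among its 11 alternatives these were the 2 in which it passed. Without 1 array the change was 1.06 to 1.43. In kidney at 1 h it had 8.27, 8.41, 8.30 and 7.98 in PH3 kidneys, against 7.69, 7.71, 7.69 and 7.72 in Air kidneys (0.53, adjusted p = 0.117). In brain at 6 h it had 9.11, 9.26, 9.22 and 9.70 in PH3 brains, against 8.94, 8.74, 9.0 and 9.0 in Air brains (0.40, adjusted p = 0.525). The groups did not overlap in these 3 comparisons, with 2 Air arrays in lung. In lung at 24 h it had 8.58, 8.32, 8.84 and 8.85 in PH3 lungs, against 7.86, 8.66, 8.20 and 7.88 in Air lungs, which overlapped. The mean of 6 fat markers in lung at 3 h was 7.80 to 8.71 in PH3 and 6.73 to 7.73 in Air, without overlap. Of single genes, 41.3% did not overlap there, and the part of the fat markers in the result was not tested. The difference of the effect on Slc25a33 between brain, heart and kidney did not pass at 1, 3 or 6 h (adjusted p = 0.154 to 0.44), nor that between times in lung (adjusted p = 1.0).

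**Figure D5:**
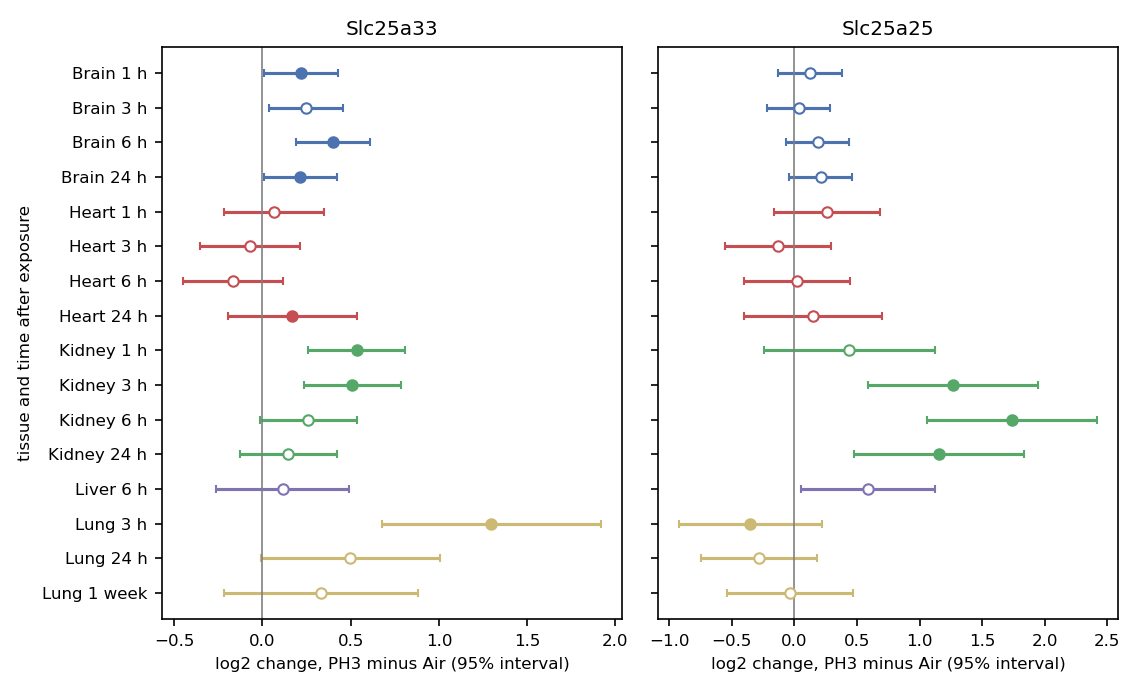
Log2 change, PH3 minus Air, with its 95% interval, of Slc25a33 and Slc25a25 in the 16 comparisons. Filled points mark comparisons in which PH3 and Air arrays did not overlap. Slc25a33 lies above 0 in 14 comparisons, and the values of Slc25a25 above 1 are those of kidney at 3, 6 and 24 h.

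Slc25a14, related to the uncoupling proteins, was the member whose effect differed between brain, heart and kidney at 3 h (limma F test, adjusted p = 0.0185), among 0.275% of all genes. It had 7.17, 7.16, 7.34 and 7.56 in PH3 hearts, against 6.76, 6.66, 7.25 and 6.40 in Air hearts, a change of 0.54. It had 6.84, 6.37, 6.03 and 6.72 in PH3 kidneys, against 6.91, 6.76, 6.91 and 6.94 in Air kidneys, a change of -0.39. Heart groups overlapped, and so did kidney groups. The kidney change minus the heart change was -0.93 ± 0.19 (SE; adjusted p = 0.00711), brain had -0.07, and neither tissue's own change passed. Without the heart array of Air rat 108 or the kidney array of PH3 rat 122, 0 members passed this test. At 1 h 0 members passed the test between tissues by limma, among 0.238% of all genes, with 3 at an unadjusted p under 0.05 (8.11%, against 10.1% of all genes). At 24 h 0 passed, among 0.0372%, with 2 at an unadjusted p under 0.05 (5.41%, against 5.69%). In the same test, 6 members had an unadjusted p under 0.05 at 3 h (16.2%, against 8.95% of all genes). At 6 h there were 12 (32.4%, against 9.21%).

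In the other comparisons 0 members passed by limma. In brain the share of all genes that passed was 0.00744% at 1 h, 0.00744% at 3 h, 0.00744% at 6 h and 0.0298% at 24 h, and 4, 1, 3 and 3 members had an unadjusted p under 0.05. These are 10.8%, 2.7%, 8.11% and 8.11% of members, against 5.19%, 4.03%, 3.21% and 12.2% of all genes. The smallest unadjusted p values in brain belonged to Slc25a41 (0.32) and Slc25a4 (-0.31) at 1 h, Slc25a33 (0.25) and Slc25a31 (0.14) at 3 h, Slc25a33 (0.40) and Slc25a16 (0.44) at 6 h, and Slc25a14 (-0.25) and Slc25a45 (-0.38) at 24 h, given as changes. The glutamate carrier Slc25a18, highest in brain, had changes of -0.13 to 0.26 over the 16 comparisons and an unadjusted p under 0.05 in 0 of them. Between times in brain 0 members and 0% of all genes passed, with 2 members at an unadjusted p under 0.05 (5.41%, against 4.25% of all genes).

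In heart the share of all genes that passed was 0.0521% at 1 h, 0.238% at 3 h and 0% at 24 h, with 2, 4 and 3 members at an unadjusted p under 0.05 (5.41%, 10.8% and 8.11%, against 8.07%, 12.8% and 3.01% of all genes). The named members were Slc25a53 (0.57) and Slc25a24 (0.25) at 1 h, Slc25a24 (-0.51) and Slc25a14 (0.54) at 3 h, and Slc25a22 (0.35) and Slc25a20 (0.20) at 24 h. In kidney the share was 0.223% at 1 h, 0.104% at 3 h and 0.0149% at 24 h, with 1, 7 and 1 members at an unadjusted p under 0.05 (2.7%, 18.9% and 2.7%, against 9.97%, 7.29% and 2.37% of all genes). The named members were Slc25a33 (0.53) and Slc25a42 (-0.36) at 1 h, Slc25a25 (1.27) and Slc25a33 (0.51) at 3 h, and Slc25a25 (1.16) and Slc25a18 (0.16) at 24 h. The mean of 3 citrate export partners did not overlap between groups at 3 h in heart or in kidney. It was 9.72 to 9.95 in PH3 and 9.99 to 10.76 in Air hearts, and 9.66 to 9.84 in PH3 and 9.84 to 10.17 in Air kidneys. Of single genes, 5.92% did not overlap in heart at 3 h and 2.9% in kidney. The citrate carrier Slc25a1 had a change of -0.68 in heart (limma adjusted p = 0.37) and of 0.22 in kidney (limma adjusted p = 0.833).

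In lung the share of all genes that passed was 0.298% at 3 h, 0% at 24 h and 0% at 1 week, with 4, 0 and 0 members at an unadjusted p under 0.05 (10.8%, 0% and 0%, against 11.8%, 1.41% and 2.12% of all genes). At 3 h, with 2 Air lungs, 16 members (43.2%) did not overlap, against 41.3% of all genes. Slc25a23 had 5.45, 5.69, 5.98 and 5.71 in PH3 lungs at 3 h, against 6.63 and 6.80 in Air lungs (change -1.01, adjusted p = 0.364), and Slc25a1 had a change of -0.72 (adjusted p = 0.358). Slc25a1 passed there when the 6 arrays were fitted alone (adjusted p = 0.0357) or with array weights (adjusted p = 0.00809). Among its 11 alternatives these were the 2 in which it passed. Without 1 array its change was -0.79 to -0.65. The smallest unadjusted p values belonged to Slc25a33 (0.50) and Slc25a45 (-0.48) at 24 h and to Slc25a4 (-0.29) and Slc25a21 (-0.12) at 1 week. Between times in lung 0 members and 0% of all genes passed, with 0 members at an unadjusted p under 0.05. The probe set shared by Slc25a5 and Slc25a6 had changes of -0.09 to 0.26 over the 16 comparisons and passed in 0 of them, with a smallest unadjusted p of 0.0704.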

How the data were processed

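RNA of frozen, powdered tissue was labelled by a 3′ method and hybridised to Affymetrix rat arrays. The deposited values are log2 signals that the authors made with RMA, which corrects background, normalizes by quantiles and summarizes probes; RMA, Affymetrix Expression Console and Partek are named without versions, per the submitters' processing notes. Which arrays were normalized together is not given in the sources used here. The values ran from 2.60 to 14.41, with array medians of 5.08 to 5.52. Arrays have no read depth.

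Of 31139 probe sets, 19068 had 1 symbol, 573 several and 11498 none in the platform annotation, and 18989 matched the RefSeq GRCr8 gene table. Each gene was read from its probe set of the highest mean, per tissue for PH3 against Air and over the organ means for levels across organs; among members the 2 rules differ for Slc25a27. For each tissue limma 3.58.1 (R 4.3.3) fitted 1 coefficient per group, with eBayes and a trend, and Benjamini-Hochberg adjustment ran over 13438 genes, with a threshold of 0.05. F tests compared the PH3 effect between times and between tissues, and the Air arrays between organs. Plots used matplotlib 3.10.9. The fits were tested on simulated data.

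Members named with values are related family members, those that lead an organ by the largest gaps, those called, those past an F test, and the 2 of smallest p where none was called. Members and lists were chosen with earlier results of these data known. Rats numbered alike across tissues are the same animal, per the labels, so the rat was also used as a block between organs and in the test between tissues. The consensus correlation within rats was -0.00767 across organs (23 rats, 16 in more than 1 tissue) and -0.00385 for the PH3 effect (34 rats, 27 in all 3 tissues). Alternatives were fitting a comparison alone, leaving out dim genes, quantile normalization, the mean of probe sets, array weights, the rat as a block and leaving out each array. Between organs, the 6 h Air arrays of the 4 organs other than lung were also fitted alone. In brain at 24 h, Air rats 89 and 145 were also left out together. Slc25a14, Slc25a33 and Slc25a45 kept the sign of their change there in all alternatives, with 0 calls. Reading Slc25a36 from its further probe set was added after seeing the data.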

Additional observations from a re-analysis of the deposited data

Results flagged for a closer look

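For a sample far from the others, 160 groups of 4 or more arrays were tested, over members named in the text and the median of the members. Of these, 10 (6.25%) held one, and chance gives about 1 in 20. In heart at 6 h after PH3, rat 141 had the lowest Slc25a29 signal, 6.849, and the lowest median of the members, 6.849. In lung at 3 h after PH3, rat 152 had the highest Slc25a1, 8.939, and in kidney at 24 h after PH3, rat 149 had the highest median of the members, 8.36. The others were Air arrays. In brain at 1 h, rat 107 was lowest for Slc25a33 (8.837), and rat 163 was highest for Slc25a4 (12.0) and lowest for the median of the members (7.257). In brain at 3 h, rat 108 was lowest for Slc25a18 (9.142) and rat 150 lowest for Slc25a27 (6.508, in the probe set that is brighter in brain). In heart at 3 h, rat 150 was lowest for Slc25a4 (13.289).

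The limma F test of the difference of the PH3 effect passed for 3 members. The effect on Slc25a24 differed between times in heart (adjusted p = 0.01822). The effect on Slc25a14 differed between brain, heart and kidney at 3 h (adjusted p = 0.01846), and that on Slc25a25 at 6 h (adjusted p = 0.001568).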

How the results depend on the processing

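Of the alternative values, 432 counts were within 1.5 times the reported count and 42 were not. Among single members 513 kept direction and side of the threshold, 34 lost the call, 9 gained it and 8 changed sign. Only values called as reported could lose a call, and most values were never called. Of 13 alternatives each, Slc25a25 in kidney at 6 h passed in 6 and Slc25a3 in liver at 6 h in 5. In heart at 6 h, Slc25a24 passed in 6 of 13, Slc25a23 in 7 of 13 and Slc25a29 in 7 of 13. Fitting the comparison alone gave 0 members in heart at 6 h, 0 in kidney at 6 h and 3 in lung at 3 h, and array weights gave 5 in lung at 3 h. Leaving out dim genes, or using the mean of probe sets, gave 1 in heart at 3 h. Without 1 array, counts were 0 to 1 in heart at 3 h, 0 to 5 in heart at 6 h, 0 to 1 in kidney at 3 h and 6 h and in liver at 6 h, and 0 to 2 (3 h) and 1 to 5 (6 h) for the test between tissues. The rat as a replicate block was fitted only for the levels between organs and for the test between tissues. It gave 37 members between organs over all Air arrays, and 0, 1, 1 and 0 between tissues at 1, 3, 6 and 24 h. The counts of members leading each organ were unchanged. The calls of PH3 against Air and between times were not fitted with this block. Single values that changed sign were those of Slc25a33 in heart at 3 h (0.0043 with quantile normalization, 0.0161 with array weights, -0.1413 to 0.0576 without 1 array), Slc25a21 in lung at 1 week (0.0112 with array weights), and, without 1 array, Slc25a24 in heart at 24 h (-0.1411 to 0.3036), Slc25a33 in heart at 1 h (-0.0301 to 0.1419) and in liver at 6 h (-0.0001 to 0.2465); the cause was not tested.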
